A study of Mus musculus with 18 samples.

Results

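The 10 genes followed here report or carry LIF and BMP signals (Id1, Id2, Id3, Socs3, Stat3, Lifr, Il6st, Smad1, Smad6 and Junb), in mouse embryonic stem cells depleted of nucleolin. They were taken by name, as every probe whose platform annotation gives a listed symbol, which found 22 probes for all 10 genes among 45281 probes and 19057 named genes. CGR8 cells, a stem cell line of the strain 129P2/Ola, carried 1 of 3 stably integrated siRNAs that are induced by Tc (read here as tetracycline). The EGFP line held an siRNA against EGFP, a jellyfish gene that mouse cells lack, and the Ncl-1 and Ncl-2 lines held siRNAs called nucleolin 1 and nucleolin 2. Each line was kept for 3 days without Tc (-Tc) or with Tc (+Tc), which gave 6 groups of 3 total RNA samples on Illumina Mouse-6 version 2 arrays, so that all 6 groups share the host line and differ in siRNA and in Tc. Uninduced and induced below mean -Tc and +Tc. The labels do not say whether a line is 1 clone, what the medium held, or whether replicates were separate cultures, so p-values measure nothing beyond how these samples spread, which may be technical.

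LIF binds a receptor made of Lifr and Il6st (gp130), whose Jak kinases phosphorylate Stat3. Stat3 then enters the nucleus and switches on target genes, among them Socs3, which inhibits the same receptor, and Junb. BMP ligands act through receptor kinases that phosphorylate Smad1 and its relatives, which induce the Id genes and the inhibitor Smad6. Id proteins bind basic helix-loop-helix (bHLH) transcription factors and keep them off DNA. In mouse embryonic stem cells LIF through Stat3 and BMP through the Id genes are both known for holding back differentiation.

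Promoters are shown for the genes that the results turn on, Id2 and Id3 as the Id genes with the larger responses in the Ncl-2 line and Socs3 as the direct Stat3 target. They come from RefSeq on build GRCm38.p6, with 250 bases before and 50 bases after the start of the gene, written 5′ to 3′ along the gene. Capitals mark matches to TTCNNNGAA, a spacing that STAT proteins bind, or to GGCGCC, a GC-rich element bound by BMP Smads. No coordinate of the array's own annotation is used.
Id2, chr12:25096043-25096342, minus strand: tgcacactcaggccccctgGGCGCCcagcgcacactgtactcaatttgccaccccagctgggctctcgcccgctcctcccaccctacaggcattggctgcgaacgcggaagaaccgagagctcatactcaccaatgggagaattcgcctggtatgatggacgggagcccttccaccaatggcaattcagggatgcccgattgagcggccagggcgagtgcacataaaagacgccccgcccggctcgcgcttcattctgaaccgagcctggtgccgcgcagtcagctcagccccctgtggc
Id3, chr4:136143572-136143871, plus strand: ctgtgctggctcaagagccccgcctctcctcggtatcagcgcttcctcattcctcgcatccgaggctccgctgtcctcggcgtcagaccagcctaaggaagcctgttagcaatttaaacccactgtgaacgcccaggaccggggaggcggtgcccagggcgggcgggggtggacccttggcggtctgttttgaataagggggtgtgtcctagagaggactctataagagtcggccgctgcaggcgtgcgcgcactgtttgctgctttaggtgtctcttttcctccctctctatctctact
Socs3, chr11:117969317-117969616, minus strand: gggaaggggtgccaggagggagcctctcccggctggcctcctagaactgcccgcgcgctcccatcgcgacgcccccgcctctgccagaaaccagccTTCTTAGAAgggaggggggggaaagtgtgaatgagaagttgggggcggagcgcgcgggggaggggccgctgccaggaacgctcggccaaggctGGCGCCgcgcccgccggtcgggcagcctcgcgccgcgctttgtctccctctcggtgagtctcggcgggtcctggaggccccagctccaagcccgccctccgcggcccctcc

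The table held promoters for 9 of the 10 genes, 10 windows in all, since Lifr has 2. On both strands, TTCNNNGAA was found in Socs3 alone of the 10 windows, at bases -154 to -146 from the start as TTCTTAGAA, and 8.3% of 32851 mouse promoter windows hold it. GGCGCC was found in Id2 at -231 to -226, in Socs3 at -61 to -56 and in 1 Lifr window at -194 to -189 and at -25 to -20, against 11.9% of all windows. The palindrome GTCTAGAC, another Smad element, was found in Smad6 at -4 to 4 and is in 0.213% of all windows, while TTCCNGGAA, a narrower form of the STAT motif whose matches all lie within the first, was in 0 of the 10 windows and in 1.15% of all. None of these searches found a match in the Id3 window.

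The arrays were comparable in depth but not in level. Mean raw intensity ran from 279.9 to 836.7 units per array, and between 18099 and 21015 probes (40% to 46.4%) were detected, that is, had a detection p below 0.05. Precision is limited by the number of arrays. Values below are log2 signals after background correction and quantile normalization, with undetected probes mostly between 4 and 5. A gene was read from its brightest probe among those detected throughout at least 1 group (3 of 3 arrays), a filter that 17 of the 22 probes passed, at least 1 for each gene. Of the 5 that failed, 3 were detected on no array, and 1 each belonged to Id2, Il6st and Junb and 2 to Smad1. The targeted transcript Ncl fell to 3.94% of its signal with the first nucleolin siRNA and to 4.88% with the second (limma adjusted p = 2.01e-06 and adjusted p = 3.9e-06), and changed by 0.07 ± 0.36 in the EGFP line. Averaged over the 6 groups, the arrays of replicate 3 differed from those of replicates 1 and 2 by a median size of 0.46 over 10557 genes. The shift was above 1 for 17.5% of them, and no such shift is given for replicates 1 and 2. Arrays with the same replicate number moved together, so differences within a number are given beside the group values, and a model that takes the number as a block (the replicate block) is given where it changes a call.

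Of the 10 genes 1, Id2, rose in both nucleolin lines, and the other 9 did not pass the test in the fit of 6 group means. In the Ncl-1 line 1 of 10 was higher and 0 lower, where 8.13% of all 10557 genes were called, 5.4% higher and 2.73% lower. In the Ncl-2 line 1 of 10 was higher and 0 lower, where 9.11% of all genes were called, 5.96% higher and 3.15% lower. The share of 1 in 10 is therefore near that of all genes. The median change of the 10 genes was 0.18 in the Ncl-1 line and 0.19 in the Ncl-2 line, against -0.04 and -0.05 over all genes. The single changes ran from -0.52 to 1.28 and from -1.06 to 1.92, with 7 of the 10 estimates above 0 in each line. With the replicate block the Ncl-1 count was again 1 higher and 0 lower, where 26.9% of all genes were called (14.3% higher, 12.6% lower), while the Ncl-2 count was 4 (Id2, Id3 and Smad1 higher, Lifr lower), where 27% of all genes were called (13.9% higher, 13.1% lower).

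**Figure D1:**
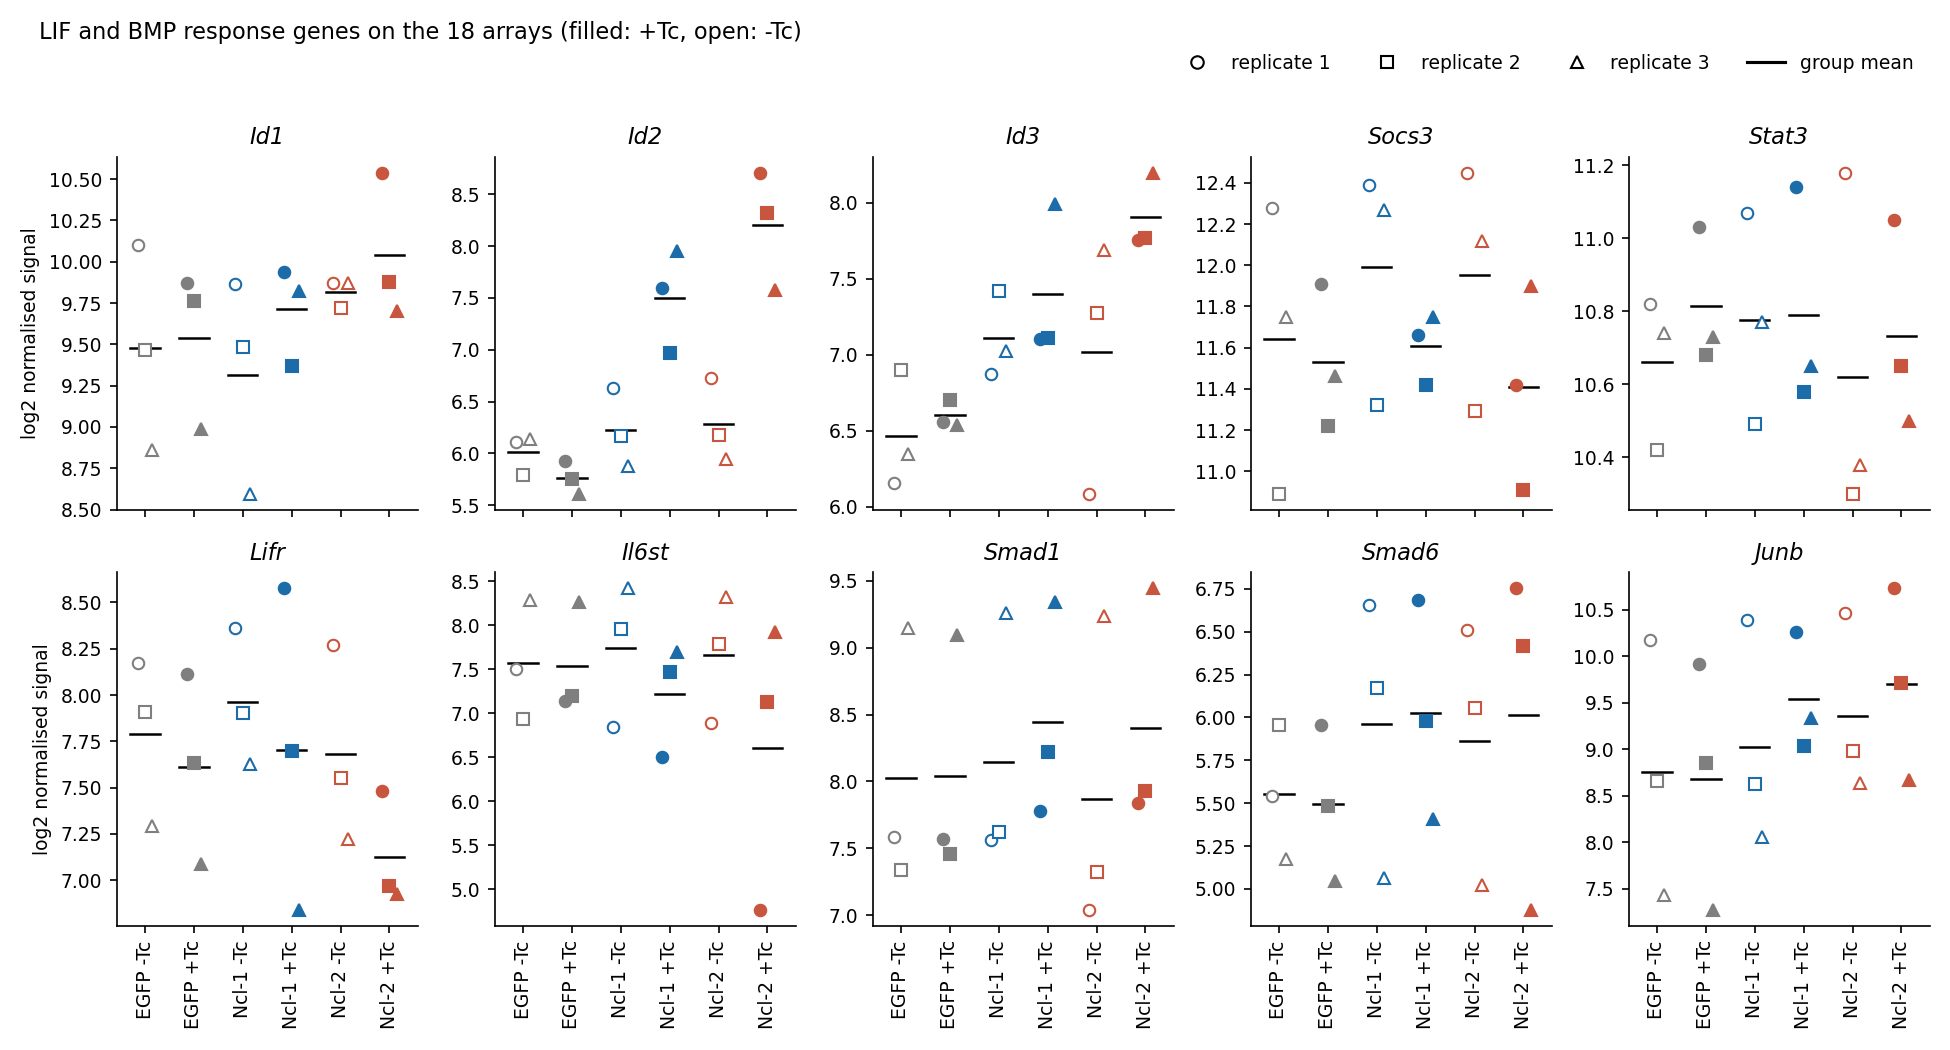
Log2 normalised signal of each of the 10 genes (vertical axis, its own range per panel) on the 18 arrays, by group (horizontal axis). Open symbols are -Tc and filled symbols +Tc, the shape gives the replicate number and the bar is the mean of 3 arrays. The Id2 +Tc arrays of both nucleolin lines lie above their -Tc arrays, while Smad1, Junb, Smad6 and Il6st spread by replicate number within every group.

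Id2 (Entrez Gene 15902), the Id gene that is also a known early marker of the trophectoderm in mouse embryos, had a log2 signal of 6.63, 6.17 and 5.88 in replicates 1, 2 and 3 of the Ncl-1 line without Tc. With Tc it had 7.59, 6.97 and 7.95. The lowest induced array lay above the highest uninduced one, so the groups did not overlap. The change was 1.28 ± 0.32 (SE, n = 3 per group, limma adjusted p = 0.0206, with a 95% interval of 1.51-fold to 3.88-fold). Within replicate numbers the differences were 0.97, 0.80 and 2.07.

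In the Ncl-2 line Id2 had 6.72, 6.18 and 5.95 without Tc and 8.71, 8.32 and 7.58 with Tc. Here too the groups did not overlap, and every replicate number gave a rise, of 1.99, 2.14 and 1.63. The change was 1.92 ± 0.32 (limma adjusted p = 0.00123, with a 95% interval of 2.36-fold to 6.05-fold). In the EGFP line the values were 6.11, 5.79 and 6.14 without Tc and 5.93, 5.75 and 5.61 with Tc, which overlap, and the change was -0.25 ± 0.32 (limma adjusted p = 1).

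Ordered by level, Id2 was highest in the induced Ncl-2 group (8.20 ± 0.57, SD, n = 3), then in the induced Ncl-1 group (7.50 ± 0.50). Then came the uninduced Ncl-2 (6.28 ± 0.40) and Ncl-1 (6.23 ± 0.38) groups and the EGFP line without Tc (6.01 ± 0.20) and with Tc (5.76 ± 0.16). The steps from the first to the second group, from the second to the third and between the EGFP groups were larger than the SDs of the groups beside them, and the other 2 steps were not. Both nucleolin responses together exceeded the EGFP response by 1.85 ± 0.39 (limma adjusted p = 0.015), with 1 of 10 genes called, where 3.3% of all genes were. The response of the Ncl-1 line minus that of the Ncl-2 line was -0.64 ± 0.45 (adjusted p = 1, 95% interval -1.60 to 0.32), and 0 of 10 genes were called in that comparison (0% of all genes, and 0 of the 10 at an unadjusted p below 0.05).

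For Ncl-1, leaving out a single array of that line ended the Id2 call in 4 cases, uninduced replicate 2 (limma adjusted p = 0.0722) or 3 (0.0867) and induced replicate 1 (0.0711) or 3 (0.0983). No single array ended it for Ncl-2. With the replicate block, Id2 stayed called in both lines and against EGFP without any 1 of the 18 arrays, with adjusted p up to 0.0106, 0.000529 and 0.00421.

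These values rest on 1 of 3 Id2 probes, the one that the annotation ties to a cDNA record rather than to the RefSeq transcript. The second probe that passed, tied to the RefSeq transcript, had 5.55, 5.78 and 6.60 uninduced in Ncl-1 and 5.56, 5.55 and 8.70 induced. Its +Tc value was thus high in replicate 3 alone, with differences of 0.01, -0.23 and 2.11. With the second siRNA it had 6.19, 5.57 and 7.49 without Tc and 7.18, 6.72 and 8.26 with Tc, so every replicate number was higher with Tc. Its changes were 0.63 ± 0.77 and 0.97 ± 0.77, neither past the test over all probes (limma adjusted p = 0.826 and adjusted p = 0.632, and 0.213 and 0.054 with the replicate block, where 5.69% and 6.52% of 19154 probes passed without it). With the mean of both probes Id2 lost its Ncl-1 call (0.95, limma adjusted p = 0.215) and against EGFP (1.35, adjusted p = 0.223). The third Id2 probe was detected on 2 of 18 arrays.

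Id3, another Id gene, passed the test in the Ncl-2 line with the replicate block and not in the fit without it. For Ncl-2 the arrays read 6.09, 7.27 and 7.69 without Tc and 7.75, 7.77 and 8.20 with Tc. The groups did not overlap, although the gap between them was narrow, and the differences within replicate numbers were 1.67, 0.49 and 0.51. The change was 0.89 ± 0.36 (limma adjusted p = 0.16, and adjusted p = 0.0263 with the replicate block). Leaving out uninduced replicate 1 (0.174) or induced replicate 1 (0.106) or 3 (0.0702) of that line ended the blocked call.

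In the Ncl-1 line Id3 had 6.88, 7.42 and 7.02 without Tc and 7.10, 7.11 and 7.99 with Tc, which overlap, with a change of 0.29 ± 0.36. In the EGFP line it lay between 6.16 and 6.90 on all 6 arrays. Groups that did not overlap and were higher with Tc numbered 1 of 10 genes in the Ncl-1 line (12% of all genes) and 2 of 10 in the Ncl-2 line (12.4%), and 0 were lower (10.6% and 11.6% of all genes).

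Id1, the Id gene most used as a readout of BMP, was brighter than background on all 18 arrays, between 8.60 and 10.54. In the Ncl-1 line it had 9.87, 9.48 and 8.60 without Tc and 9.94, 9.37 and 9.82 with Tc. The Ncl-2 arrays read 9.87, 9.72 and 9.87 without Tc and 10.54, 9.88 and 9.70 with Tc. Groups overlapped in both lines. The changes of 0.40 ± 0.37 and 0.22 ± 0.37 did not pass the test, with fold intervals of 0.76 to 2.27 and 0.67 to 2.01. In the EGFP line the change was 0.06 ± 0.37, and no neighbouring groups in the order of Id1 levels differed by more than their SDs.

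**Figure D2:**
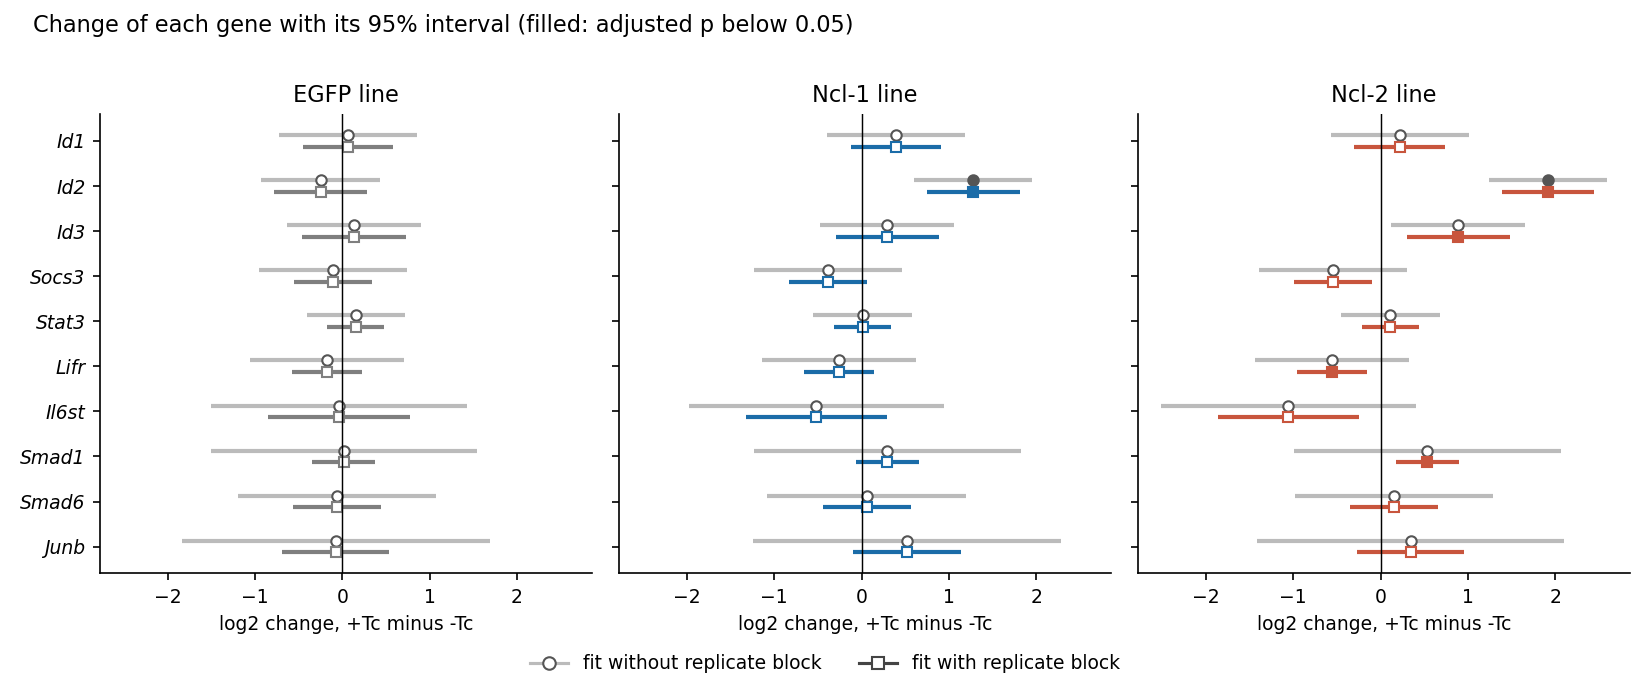
Log2 change with Tc of the 10 genes (horizontal axis) in each line, with 95% intervals, from the fit without the replicate block (circles, grey) and with it (squares, coloured). Filled symbols have an adjusted p below 0.05. Id2 is filled in both nucleolin lines in both fits, Id3, Lifr and Smad1 are filled in the Ncl-2 line with the block only, and nothing is filled in the EGFP line.

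Among the receptor genes, Lifr, the LIF-binding chain, had 8.36, 7.90 and 7.62 uninduced in Ncl-1 and 8.58, 7.70 and 6.84 induced, a change of -0.26 ± 0.42. The Ncl-2 arrays gave 8.27, 7.55 and 7.22 without Tc and 7.48, 6.97 and 6.92 with Tc. The Ncl-2 groups overlapped, but every replicate number was lower with Tc, by -0.79, -0.59 and -0.30. The EGFP line was lower in every replicate number too, by -0.06, -0.28 and -0.20. The change was -0.56 ± 0.42 (limma adjusted p = 0.544, and adjusted p = 0.0375 with the replicate block). The blocked call was lost without any 1 of 5 of the 6 Ncl-2 arrays (adjusted p from 0.0616 to 0.154), the exception being induced replicate 3.

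A second Lifr probe, detected on 16 of 18 arrays, was lower with Tc in every replicate number of both lines, by -0.67, -0.81 and -0.89 in the Ncl-1 line and by -0.46, -0.83 and -0.76 in the Ncl-2 line. It was also lower in every replicate number of the EGFP line, by -0.02, -0.20 and -0.22. It passed the test over all probes with the replicate block (limma adjusted p = 0.024 and adjusted p = 0.0461, where 23.1% and 24.4% of 19154 probes were called) and not without it (0.337 and 0.431). It was undetected on 1 induced array of each nucleolin line. The remaining Lifr probe changed by -0.24 ± 0.27 and -0.48 ± 0.27 and passed in neither fit. In the EGFP line the 3 probes changed by -0.18, -0.15 and -0.01.

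Il6st, the signal-transducing chain shared by the receptors of the interleukin 6 family, had 6.85, 7.96 and 8.42 uninduced in Ncl-1 and 6.50, 7.46 and 7.70 induced. Il6st in Ncl-2 was 6.89, 7.78 and 8.32 without Tc and 4.77, 7.13 and 7.92 with Tc. Groups overlapped in both lines, while all 6 differences within replicate numbers were below 0. The value of 4.77 was the only array of 18 on which Il6st was not detected, so 2 of the 3 induced Ncl-2 arrays measured it. The changes were -0.52 ± 0.69 and -1.06 ± 0.69 (limma adjusted p = 0.788 and adjusted p = 0.456, and 0.335 and 0.0503 with the replicate block). Without induced replicate 1 the Ncl-2 change was -0.14, and -0.42 with the block (adjusted p = 0.348). Leaving out uninduced EGFP replicate 1 (0.0317) or 2 (0.0354), or induced Ncl-2 replicate 2 (0.0316) or 3 (0.021), the blocked test called it.

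Stat3, the transcription factor that LIF activates, passed the test in neither line, with estimates near 0. It had 11.07, 10.49 and 10.77 uninduced in Ncl-1 and 11.14, 10.58 and 10.65 induced, and 11.18, 10.30 and 10.38 against 11.05, 10.65 and 10.50 in the Ncl-2 line. Groups overlapped, and by the probe that represents Stat3 the 18 arrays spanned less than 1 log2 unit, from 10.30 to 11.18. The changes of 0.01 ± 0.26 and 0.11 ± 0.26 had fold intervals of 0.68 to 1.49 and 0.73 to 1.60. Its other probes, 1 of them tied to another Stat3 transcript, changed by -0.19 and 0.25 in the Ncl-1 line and by 0.39 and -0.14 in the Ncl-2 line, and passed in neither fit. Over the 18 arrays these probes spanned more, from 9.5 to 11.72 and from 7.241 to 9.195. The array measures the transcript and not the phosphorylated protein.

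Smad1, which carries the BMP signal, had 7.56, 7.62 and 9.26 uninduced in Ncl-1 and 7.78, 8.22 and 9.34 induced. Smad1 in Ncl-2 was 7.04, 7.32 and 9.24 without Tc and 7.84, 7.92 and 9.44 with Tc. Replicate 3 was the high array in all 6 groups, by 1.65 on average, and the groups overlapped, but all 6 differences within numbers were above 0 (0.21, 0.59 and 0.08, then 0.80, 0.60 and 0.21). The changes were 0.30 ± 0.72 and 0.54 ± 0.72 (limma adjusted p = 0.902 and adjusted p = 0.814, and 0.212 and 0.0283 with the replicate block). The blocked Ncl-2 call ended without uninduced replicate 1 (0.149) or 2 (0.0844) or induced replicate 1 (0.087) or 2 (0.0828). A second Smad1 probe detected on 18 arrays had differences of 0.65, 0.63 and 0.23 in the Ncl-2 line (limma adjusted p = 0.0563 over all probes with the replicate block). In the Ncl-1 line it had 0.17, 0.26 and -0.28, and in the EGFP line 0.20, 0.19 and 0.04. A probe detected on 11 of 18 arrays had -0.79, -0.29 and -0.06 in the Ncl-2 line, but lay near background (4.455 to 5.571). It passed the filter through the uninduced Ncl-2 group alone, its highest (5.40). The filter thus favoured a fall in that line, and no conclusion is drawn from its direction.

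**Figure D3:**
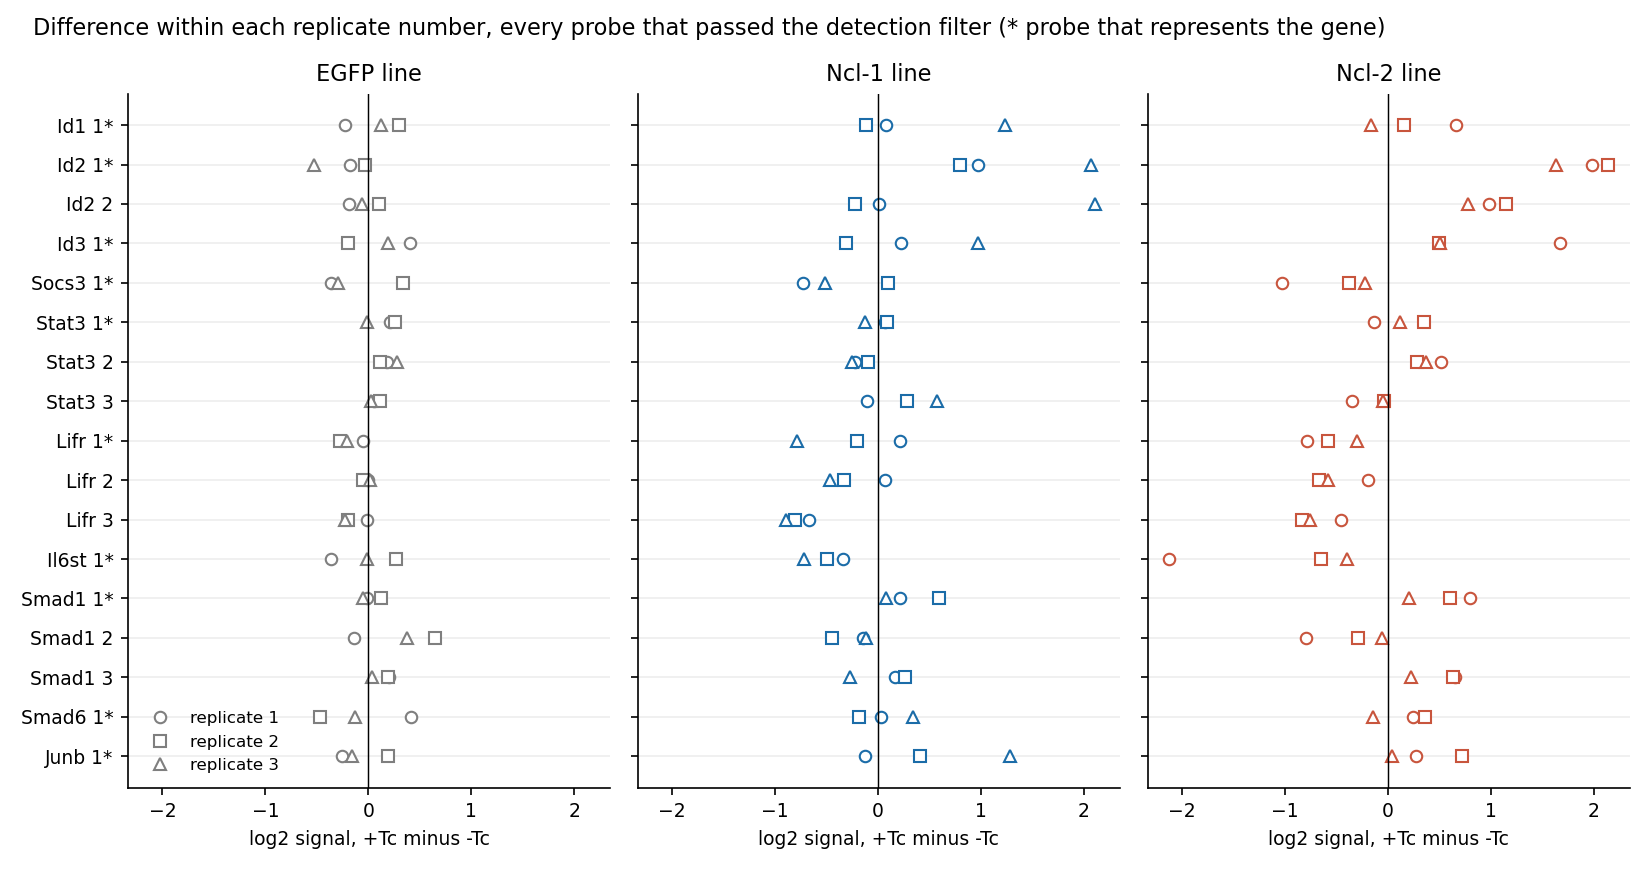
Difference in log2 signal between +Tc and -Tc arrays of the same replicate number (horizontal axis) for the 17 probes of the 10 genes that passed the detection filter, numbered within each gene, in the 3 lines. An asterisk marks the probe that represents the gene. All 3 points of the starred Id2 probe lie right of 0 in both nucleolin lines. All 3 points of the Lifr probe detected on 16 arrays lie left of 0 in both. In the Ncl-2 line a Smad1 probe near background lies left of 0. It passed the filter through the uninduced Ncl-2 group alone, and the other Smad1 probes shown lie right of 0.

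Socs3, the feedback inhibitor induced by Stat3, had 12.39, 11.32 and 12.27 uninduced in Ncl-1 and 11.66, 11.42 and 11.75 induced. Socs3 in Ncl-2 was 12.45, 11.29 and 12.12 without Tc and 11.42, 10.91 and 11.90 with Tc. Groups overlapped in both lines, with the uninduced replicates 1 and 3 the high arrays. The changes were -0.38 ± 0.40 and -0.55 ± 0.40 (limma adjusted p = 0.704 and adjusted p = 0.528), and neither passed with the replicate block (0.195 and 0.0678), although leaving out induced Ncl-2 replicate 3 gave a blocked adjusted p of 0.0301. Fold intervals were 0.43 to 1.38 and 0.38 to 1.23.

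Smad6, the inhibitor that BMP induces against its own receptors, lay near background and was detected on 14 of 18 arrays. It had 6.66, 6.17 and 5.06 without Tc and 6.68, 5.98 and 5.41 with Tc in the Ncl-1 line, and 6.51, 6.06 and 5.02 against 6.75, 6.41 and 4.88 in the Ncl-2 line. The 4 undetected arrays were all of replicate 3, and the groups overlapped. The changes of 0.06 ± 0.53 and 0.15 ± 0.53 did not pass the test, and their fold intervals of 0.47 to 2.29 and 0.51 to 2.44 leave changes of that size undetectable here.

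Junb, an AP-1 subunit and an immediate target of LIF and other signals, had 10.39, 8.63 and 8.06 uninduced in Ncl-1 and 10.26, 9.04 and 9.34 induced. Junb in Ncl-2 was 10.46, 8.99 and 8.64 without Tc and 10.73, 9.71 and 8.68 with Tc. Replicate 1 was the high array in every group, and replicate 3 lay 1.42 below the mean of the others. Groups overlapped, and the changes of 0.52 ± 0.83 and 0.34 ± 0.83 did not pass (limma adjusted p = 0.835 and adjusted p = 0.922, and 0.196 and 0.418 with the replicate block).

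Tc together with the EGFP siRNA that it induces moved none of the 10 genes past the test in the EGFP line. limma called 0 of 10 there (0% of all genes, with 0 of the 10 at an unadjusted p below 0.05, and 0 with the replicate block), and the changes ran from -0.25 for Id2 to 0.15 for Stat3. Without Tc, 0 of 10 differed between the Ncl-1 and EGFP lines (0.976% of all genes, 0 of the 10 at an unadjusted p below 0.05), with differences from -0.16 for Id1 to 0.64 for Id3. Between the Ncl-2 and EGFP lines without Tc it was again 0 of 10 (0.966%, 0 unadjusted), from -0.16 for Smad1 to 0.60 for Junb. These last comparisons share the EGFP arrays. Only Id2 had a response that exceeded the EGFP response by the test. The other 9 had differences from -0.75 ± 0.84 for Il6st to 0.51 ± 1.01 for Junb, and 1 of 10 was called with the replicate block as well, where the background was 14.4%.

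Across the 18 arrays, after subtracting the mean of each replicate number, Id2 and Id3 varied together (Pearson r = 0.78), as did Id3 and Junb (0.77), Id2 and Junb (0.75) and Id1 and Id3 (0.71). Lifr ran opposite to Id1 (-0.69) and Id2 (-0.68), and Il6st opposite to Id2 (-0.68). The last value includes induced Ncl-2 replicate 1, where Il6st was undetected (4.77) and Id2 was at its highest (8.71). How far r rests on that array was not tested. These are descriptions over 18 arrays that share lines and normalization. By the same measure over 10557 genes, the transcripts most like Id2 were Cldn4, a tight junction protein (r = 0.97), Shisa4 (0.96) and Tdpoz4 (0.96), which changed by 1.45, 1.91 and 1.64 in the Ncl-1 line and by 1.53, 1.94 and 2.26 in the Ncl-2 line. Those most like Id3 were Ly6c1, a GPI-anchored surface protein (0.96), the growth factor gene Pdgfa (0.94) and Kctd1 (0.94). For Id1 they were the histone gene H4c6 (0.92), Ndufs8, a subunit of respiratory complex I (0.91), and Fis1, a mitochondrial fission factor (0.91), and for Socs3 the kinase gene Camkk2 (0.86), the antiviral deaminase gene Apobec3 (0.85) and Rfxap (0.85).

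Around these genes, the other members of the LIF pathway moved in both directions and mostly without passing the test. Of 25 listed genes 21 were measured, and 0 rose and 1 fell in each nucleolin line. The list median was -0.11 in the Ncl-1 line and -0.05 in the Ncl-2 line, against -0.04 and -0.05 over all genes. With the replicate block 3 rose and 2 fell in the Ncl-1 line and 3 rose and 3 fell in the Ncl-2 line, where 26.9% and 27% of all genes were called.

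The 1 that fell was Gbx2, a homeodomain gene known as a LIF and Stat3 target in mouse embryonic stem cells. It had 13.16, 12.94 and 12.91 uninduced in Ncl-1 and 11.86, 11.61 and 11.28 induced, and 12.61, 12.30 and 13.16 against 11.59, 10.82 and 11.72 in the Ncl-2 line. Groups did not overlap in either line. The changes were -1.42 ± 0.27 (limma adjusted p = 0.00414) and -1.31 ± 0.27 (adjusted p = 0.00638), against -0.01 ± 0.27 in the EGFP line, and no single array ended either call. Gbx2 differed from its EGFP response by -1.35 (limma adjusted p = 0.0379), a call lost without any 1 of 10 of the 18 arrays (adjusted p up to 0.123), namely all 6 of EGFP, uninduced 1 and 2 and induced 3 of Ncl-1, and uninduced 3 of Ncl-2.

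The 3 called higher with the block were the same in both lines, Lif itself, Pias3, an inhibitor of Stat3, and Cish, an inhibitor of cytokine receptors. Lif changed by 1.10 ± 0.33 and 1.05 ± 0.33 (limma adjusted p = 0.0513 and adjusted p = 0.0593, and 0.000232 and 0.000331 with the replicate block), near background in the uninduced groups, where 1 of 3 arrays of the Ncl-1 line and 2 of 3 of the Ncl-2 line detected it. Within these lines Lif could thus pass the detection filter only through an induced group, which favours a rise. Myc, a growth regulator that Stat3 sustains, changed by -0.92 ± 0.53 and -1.18 ± 0.53 (adjusted p = 0.369 and adjusted p = 0.212, and 0.0206 and 0.0045 with the block), and Socs2 was called lower with the block in the Ncl-2 line.

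Of 30 listed genes of the BMP pathway 16 were measured. In the Ncl-1 line 1 rose, and in the Ncl-2 line 2 rose, with 0 lower in both and medians of 0.03 and 0.11, where 5.4% and 5.96% of all genes were higher. With the block 2 and 3 rose and 0 fell, where 14.3% and 13.9% of all genes were higher. Against the EGFP response 0 of the 16 were called, where 3.3% of all genes were, and 1 with the block, where 14.4% were. Bmp7, a BMP ligand, had 6.64, 6.50 and 6.16 uninduced in Ncl-1 and 8.60, 7.86 and 8.36 induced, with no overlap and a change of 1.84 ± 0.53 (limma adjusted p = 0.0425). It changed by 1.57 ± 0.53 in the Ncl-2 line (adjusted p = 0.0814, and 0.0011 with the block). The Ncl-1 call of Bmp7 was lost without any 1 of 12 of the 18 arrays (adjusted p up to 0.138), which are replicates 1 and 2 of both EGFP groups, all 6 Ncl-1 arrays and replicate 2 of both Ncl-2 groups.

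Bmp1, a procollagen protease despite its name, had 6.46, 6.52 and 7.22 in the Ncl-2 line without Tc and 9.74, 8.82 and 8.01 with Tc. The groups did not overlap, and the change was 2.12 ± 0.56 (limma adjusted p = 0.025), against 0.74 ± 0.56 in the Ncl-1 line. Smad5, the close relative of Smad1 in BMP signalling, had 7.95, 8.17 and 7.76 without Tc and 8.58, 8.89 and 8.50 with Tc for Ncl-2, a rise of 0.70 ± 0.19 (limma adjusted p = 0.0264), and changed by 0.48 ± 0.19 in the Ncl-1 line (adjusted p = 0.144, and 0.0473 with the block). The Ncl-2 calls of Bmp1 and Smad5 were lost without 4 single arrays each, replicates 1 and 2 of both conditions for Bmp1 (adjusted p up to 0.131), and uninduced 1 and 3 and induced 1 and 2 for Smad5 (adjusted p up to 0.115). Both were also lost with median scaling, the deposited normalized table, that line's arrays alone, or without replicate 1 or 2 of all groups. The mean of all kept Smad5 probes ended the Smad5 call too. In these settings limma adjusted p reached 0.432 for Bmp1 and 0.574 for Smad5.

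Of 12 listed bHLH genes, partners or targets of Id proteins, 7 were measured. Tcf4, an E protein that Id proteins bind, fell in the Ncl-1 line from 11.20, 11.34 and 11.57 to 10.35, 10.79 and 10.16, with no overlap, by 0.94 ± 0.22 on the log2 scale (limma adjusted p = 0.0147). In the Ncl-2 line its change was -0.68 ± 0.22 (adjusted p = 0.0695, and 0.0144 with the block). Its Ncl-1 call ended without uninduced replicate 3 or induced replicate 1 or 3 (adjusted p up to 0.0716). Ascl2, a bHLH factor of the trophoblast lineage, rose in the Ncl-2 line from 4.83, 5.30 and 5.40 to 6.50, 6.17 and 6.33, by 1.16 ± 0.26 (limma adjusted p = 0.00968), with 2 of 3 uninduced arrays detecting it. Within that line Ascl2 could thus pass the detection filter only through the induced group, which favours a rise. No single array ended the Ascl2 call, but median scaling, a fit of the compared line's arrays alone, or leaving out replicate 1 or replicate 2 of all groups did (adjusted p up to 0.207). It changed by 0.73 ± 0.26 in the Ncl-1 line (adjusted p = 0.0995, and 0.032 with the block). The list medians were -0.17 and -0.18. Of the 7, 0 rose and 1 fell in the Ncl-1 line and 1 rose and 0 fell in the Ncl-2 line, where 8.13% and 9.11% of all genes were called. With the block 1 rose and 1 fell, and 1 rose and 2 fell, where 26.9% and 27% were called. Against the EGFP response 0 of the 7 were called, where 3.3% of all genes were, and 1 with the block, where 14.4% were.

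Junb's relatives among the immediate early and AP-1 genes had the highest medians of these lists, 0.57 in the Ncl-1 line and 0.98 in the Ncl-2 line, against -0.01 in the EGFP line. Of 16 listed genes 10 were measured, and 2 rose in the Ncl-1 line and 3 in the Ncl-2 line, with 0 lower, where 5.4% and 5.96% of all genes were higher. The detection filter may have raised these medians and counts, since in the nucleolin lines Fosl2 could pass it only through an induced group. With the block 3 and 7 were higher, where 14.3% and 13.9% of all genes were. Fos, the classical AP-1 subunit, had 6.91, 6.17 and 7.69 uninduced in Ncl-1 and 8.10, 8.25 and 9.76 induced, and 7.02, 5.77 and 6.84 against 9.18, 8.72 and 9.50 in the Ncl-2 line. Its groups did not overlap, and the changes were 1.78 ± 0.51 (limma adjusted p = 0.0425) and 2.59 ± 0.51 (adjusted p = 0.00427).

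Fosl2, which encodes the AP-1 subunit Fra2, had 4.79, 4.83 and 5.43 uninduced in Ncl-1 and 5.85, 5.67 and 6.85 induced, and 4.76, 4.86 and 5.10 against 6.98, 6.36 and 6.36 in the Ncl-2 line. It rose by 1.11 ± 0.31 (limma adjusted p = 0.0375) and 1.66 ± 0.31 (adjusted p = 0.00281), from uninduced groups in which 1 of 3 arrays detected it. Neither of these groups met the detection filter. Within these lines Fosl2 could thus pass only through an induced group, which favours a rise. Jun rose by 1.53 ± 0.35 in the Ncl-2 line (adjusted p = 0.0121) and changed by 1.03 ± 0.35 in the Ncl-1 line (adjusted p = 0.0899, and 0.021 with the block). The Ncl-1 call of Fos was lost without any 1 of 8 arrays (for EGFP uninduced 1 and 2 and induced 1, for Ncl-1 uninduced 1 and 2 and induced 3, for Ncl-2 induced 1 and 2, adjusted p up to 0.192). That of Fosl2 was lost without any 1 of 7 (for EGFP uninduced 1 and 2, for Ncl-1 uninduced 1 and 2 and induced 1 and 3, for Ncl-2 uninduced 2, adjusted p up to 0.167). The Jun call in the Ncl-2 line ended without uninduced replicate 2 or induced replicate 1 (adjusted p up to 0.0634), and no single array ended the Fos and Fosl2 calls there, although leaving out replicate 1 or replicate 2 of all groups did (adjusted p up to 0.117 and 0.17). Median scaling, the deposited normalized table or a fit of that line's arrays alone also ended the Ncl-1 calls of both. None of the 10 passed against the EGFP response in the fit without the block, and 2 (Fos and Fosl2) did with it.

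**Figure D4:**
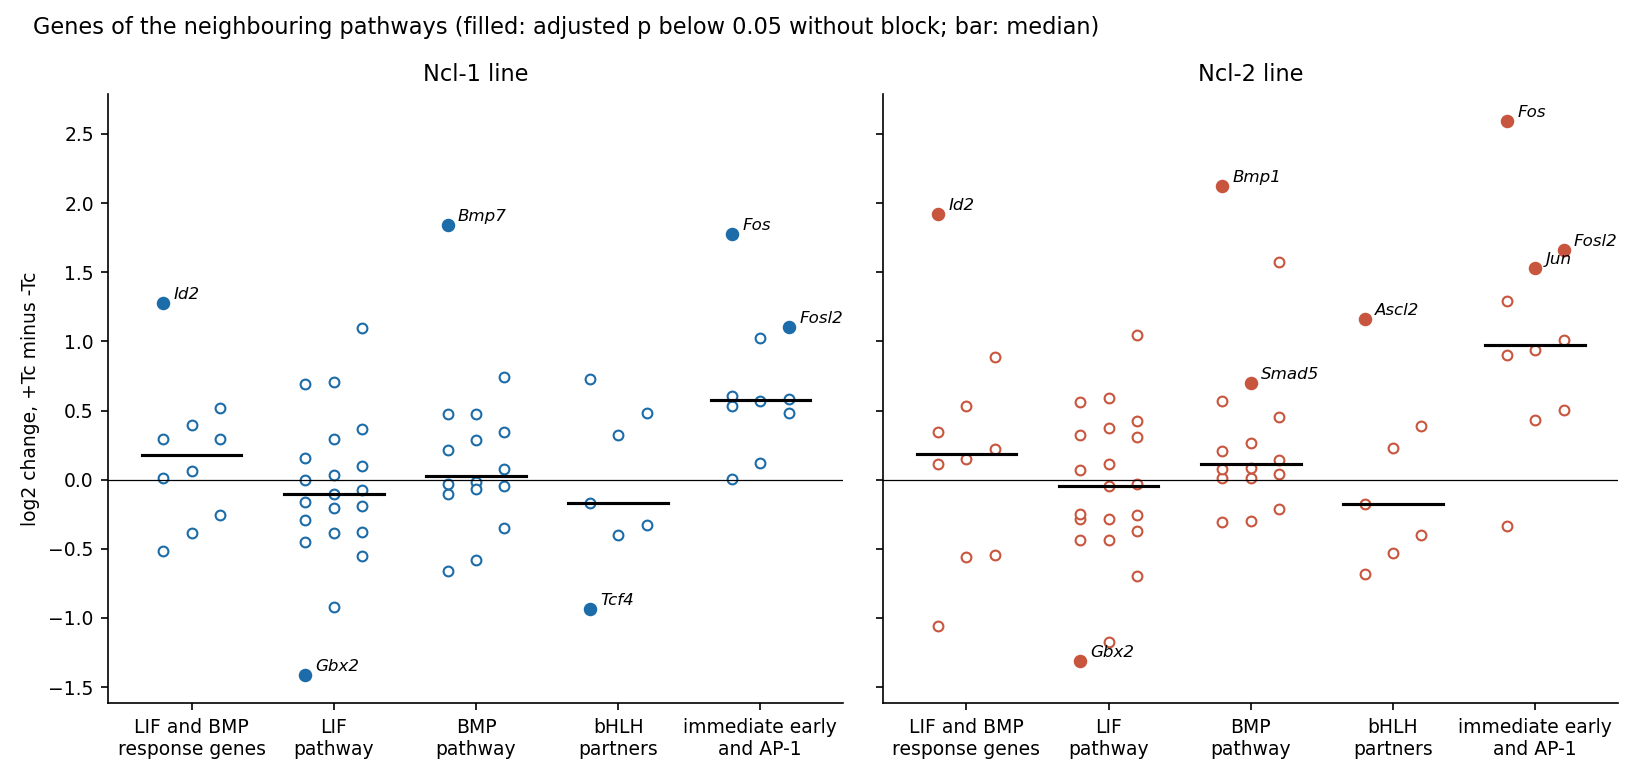
Log2 change with Tc (vertical axis) of the 10 LIF and BMP response genes and of the measured genes of 4 neighbouring lists, in the Ncl-1 line (left) and the Ncl-2 line (right). Each point is a gene, filled and named where its adjusted p is below 0.05 without the replicate block, and the bar is the list median. The medians of the immediate early and AP-1 genes, 0.57 and 0.98, stand above those of the other lists. Genes that failed the detection filter are not shown.

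The cells kept the transcripts of their label. All 12 embryonic stem cell markers measured, Pou5f1, Sox2 and Nanog among them, were detected on all 3 arrays of every group, with a summed signal of 108800 to 134100 units per array, and limma called 0 of 12 in any line (0 at an unadjusted p below 0.05; with the block, Sox2 higher in both nucleolin lines and Pou5f1 lower in the Ncl-2 line). Of 10 fibroblast or feeder markers 1 was detected on all 3 arrays in each group. Of 5 measured trophectoderm markers 2 rose in both nucleolin lines, the keratin gene Krt7 by 3.36 and 4.01 and Tfap2c, a transcription factor of the trophectoderm and of germ cells, by 2.94 and 2.86 (limma adjusted p up to 0.00102). The other 3 did not pass, with changes of -0.02 and 0.50 for Krt8, 0.49 and 0.81 for Krt18 and -0.14 and 0.30 for Tead4. The summed signal of the 10 with a probe was 1500 to 2718 uninduced and 8572 to 12950 induced in the Ncl-1 line, 1767 to 2214 and 9403 to 11560 in the Ncl-2 line, and 1981 to 4082 in the EGFP line. Gata3 and Hand1, which help define that lineage, were detected on at least 1 array in the induced groups of both nucleolin lines and on 0 arrays of the other 4 groups, Elf5 in the induced Ncl-2 group alone, and Cdx2 in all 4 nucleolin groups and on 0 EGFP arrays. Eomes, also on that list, was detected on at least 1 array of all 6 groups. None of these genes passed the detection filter, so none was tested. Mesoderm markers summed to 229.9 to 293.7 without Tc and 290.5 to 400.0 with Tc over both nucleolin lines, with Gsc and Lhx1 called higher in both. Of the 8 with a probe, 0 were detected on all 3 arrays of any EGFP or -Tc group. In the induced Ncl-1 and Ncl-2 groups 3 and 2 were, so the filter itself favoured a rise. Lhx1 was detected on 0 -Tc arrays, and against the detection floor its rise was at least 1.26-fold in Ncl-1 and 1.61-fold in Ncl-2. The Ncl-1 call of Gsc ended without any 1 of 4 arrays of that line (uninduced 2 and 3, induced 1 and 3, adjusted p up to 0.104) and its Ncl-2 call without uninduced replicate 2 (0.0594). That of Lhx1 in Ncl-1 ended without any 1 of 11 (adjusted p up to 0.133), which are replicates 1 and 2 of both EGFP groups, all of Ncl-1 but induced 2, and replicate 2 of both Ncl-2 groups. Of 5 measured primitive endoderm markers and 2 fibroblast markers 0 were called by limma in either line (0 in the Ncl-1 line and 2 and 1 in the Ncl-2 line at an unadjusted p below 0.05, and with the block 2 and 1 there), and of 4 neuroectoderm markers Sox11 was lower for Ncl-1 (-1.21 ± 0.35, limma adjusted p = 0.0451), a call lost without any 1 of 14 arrays (adjusted p up to 0.17), that is, all but induced 1 and 2 of Ncl-1 and induced 2 and 3 of Ncl-2. Against the EGFP response Krt7 and Tfap2c passed, while 0 of 3 measured mesoderm and 0 of 4 neuroectoderm markers did. With the block 2 and 1 of these did, where 14.4% of all genes were called. In bulk RNA, more cells of a type and more RNA per cell cannot be told apart, and the part of these markers in the Id2 change was not tested.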

How the data were processed

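Total RNA was made into biotinylated cRNA and hybridised to 18 single-colour arrays, per the labels' protocols. The deposited table used here gives raw probe intensity on a linear scale, with detection p-values. GenomeStudio 2010.1 is named in the submitters' processing notes, without a background option. The deposited normalized intensity table served as an alternative alone: its array medians were near 7.6 for replicates 1 and 2 and near 10 for replicate 3, and its transformation is unknown.

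Intensity was background-corrected with limma 3.58.1 (normexp, offset 16, control levels inferred from the deposited detection p-values), quantile normalized and set to log2. Of 45281 probes, 34885 had 1 symbol, 18 several and 10378 none, and 34807 matched RefSeq gene IDs. Probes with a detection p under 0.05 on all 3 arrays of a group were kept (19154), and the brightest stood for its gene (10557 genes). A 6-group linear model with moderated statistics gave two-sided p-values, adjusted by Benjamini-Hochberg over all genes, with a threshold of 0.05. The code was tested on simulated data. No pair of arrays was identical.

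Samples were grouped by line and Tc. Replicate numbers come from the labels. All 45 pairs of arrays of different groups with the same number had correlated deviations from their group means (r between 0.302 and 0.959, with 0.717 the median). The 90 pairs with different numbers had a median of -0.402, from -0.88 to 0.728. Deviations from a mean of 3 arrays sum to 0, which itself favours that negative sign. Arrays of the same number thus moved together, but what a shared number stands for was not tested. Named genes were all 10, Ncl, 3 stem cell markers, up to 4 called genes per pathway list and, for 4 of the 10, the 3 genes most alike. Genes named beyond these, such as Lif, Cish, Pias3, Myc and Socs2, were chosen after their values were seen. The 10 genes and the lists were chosen with earlier results of these data known. Alternatives covered background, offset, scaling, detection filter, probe choice, array weights, the replicate block and left-out arrays.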

Additional observations from a re-analysis of the deposited data

Results flagged for a closer look

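The response of Id2 differed between the nucleolin and EGFP lines by the test of that difference. Id2 changed by 1.28 in the Ncl-1 line and 1.92 in the Ncl-2 line, and by -0.25 in the EGFP line, and the mean nucleolin response exceeded the EGFP response by 1.85 on the log2 scale (limma adjusted p = 0.015). By the probe that represents Id2, all 6 differences within replicate numbers were above 0 in the nucleolin lines and all 3 were below 0 in the EGFP line. The other Id2 probe that passed had -0.23 in replicate 2 of the Ncl-1 line and 0.10 in replicate 2 of the EGFP line, and with the mean of both probes the call was lost (1.35, limma adjusted p = 0.223). Groups of 3 arrays were not searched for outlying samples.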

How the results depend on the processing

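The replicate block raised the count of the 10 genes called in the Ncl-2 line from 1 to 4, and changed no other call of the 10 in the comparisons of the lines. With the mean of all kept probes of a gene, 0 of 10 were called in the Ncl-1 line and 0 against EGFP. With only the arrays of the lines compared, 0 were called in the Ncl-1 line. Replicates 1 and 2 alone gave 0 in the Ncl-1 line and 2 in the Ncl-2 line. Array weights gave 6 in the Ncl-2 line, 2 for the Ncl-1 minus Ncl-2 response, and 1 and 2 for the uninduced Ncl-1 and Ncl-2 lines against EGFP, but ran from 0.187 to 27.8 and stopped short of their tolerance. Leaving out arrays gave 0 to 1 in the Ncl-1 line, 0 to 2 in the Ncl-2 line and 0 to 1 against EGFP. The Id2 change ran from 0.88 to 2.07 in the Ncl-1 line, where 23 of 33 tested alternatives called it, and stayed called in 31 of 33 in the Ncl-2 line, the exceptions being without replicate 1 (1.88, limma adjusted p = 0.051) and without replicate 2 (1.81, 0.131). Against EGFP it was lost without replicate 1 (1.94, 0.165) or replicate 2 (2.02, 0.382). Leaving out arrays under the replicate block, an alternative chosen after seeing the data, gave 1 to 5 of 10 in the Ncl-2 line, with 1 without replicate 1 of either Ncl-2 group. Of the 67 uncalled changes 55 changed sign in at least 1 alternative, and 0 of the 3 called ones did. Of 21 calls of pathway and marker genes in the nucleolin lines, 19 were lost without replicate 1 (all but Krt7 in both lines), 20 without replicate 2 (all but Krt7 in Ncl-2), 13 with only the arrays of the lines compared, 9 with median scaling and 5 with the deposited normalized table.

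Counts over all genes moved more. In the Ncl-1 line 858 genes became 2840 with the replicate block, 553 with median scaling, 4734 with array weights, 216 with only that line's arrays, 179 and 115 without replicates 1 and 2, and 522 without Ncl-1 -Tc replicate 2. In the Ncl-2 line 962 became 2852, 510, 6008, 453, 175 and 99, then 1690 without replicate 3, and 547 and 534 without Ncl-2 -Tc replicate 2 and Ncl-2 +Tc replicate 1. Against EGFP 348 became 1518 with the block, 230 with median scaling, 2982 with weights, 638 without replicate 3, 26 and 1 without replicates 1 and 2, and 221, 183 and 195 without EGFP -Tc replicates 1 and 2 and EGFP +Tc replicate 2. Weights gave 1 for the EGFP line and 994 for Ncl-1 minus Ncl-2, both 0 otherwise except for 1 without replicate 3 in the latter. Uninduced, 103 and 102 became 917 and 1278 with the block, 16 and 27 with median scaling, 3221 and 3578 with weights, and 0 to 231 and 0 to 251 without single replicates, with 59 for Ncl-1 from its own arrays and EGFP's. Median scaling moved the median of all genes to -0.13 in the Ncl-2 line and -0.14 in the EGFP line. The causes were not tested. Replicate 3 alone gives values with no test, and Smad6 had no value at a detection p under 0.01.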
